A study of Mus musculus with 112 samples.

Results

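The data described here were the transcriptomes of mouse embryonic stem cells (ESCs) without the histone demethylase LSD1, set against those of wild-type (WT) ESCs. LSD1 is the product of the gene Kdm1a. The members were chosen by title and by alignment, as the 6 naive ESC libraries titled LSD1 KO 1 to 6 and the 3 titled WT 1 to 3, which made 9 of the 112 libraries of the series. These 9 alone held no count on unplaced contigs, and the 143 genes with an exon on such a contig were left out.

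All cells were V6.5 mouse ESCs kept naive in serum-free N2B27 medium with LIF and inhibitors of the kinases MEK and GSK3. LSD1 KO cells had lost the promoter and the first exon of the gene through a CRISPR/Cas9 deletion and were picked as clones, and WT cells carried no deletion. The study used a pair of independent clones, but the labels do not say which library came from which clone, so p-values measure the spread between these libraries. LSD1 KO 1, 3 and 5 stood somewhat apart from 2, 4 and 6: deviations from the LSD1 KO mean correlated at −0.146 to −0.0554 within these sets and at −0.329 to −0.191 between them, and no label names the sets. Further libraries were used for comparison: 4 other LSD1 KO libraries (2 given solvent, DMSO, and 2 titled as LSD1 KO without doxycycline), 4 libraries of LSD1 CI cells, whose own LSD1 is mutated to be catalytically inactive but still made, and 8 further WT libraries (WT 4 to 11).

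LSD1 takes methyl groups off lysine 4 of histone H3, a mark of active promoters and enhancers, and works in the CoREST complex with a histone deacetylase (HDAC1 or HDAC2) and an RCOR scaffold. The complex is best known as a repressor that factors such as REST and GFI1 bring to genes of other lineages. In ESCs, LSD1 sits at many active enhancers, and cells without it still self-renew but differentiate poorly.

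The LSD1 KO libraries held 32049722 to 47765316 counts and the WT libraries 43609558 to 58186717 counts (two-sided exact permutation test of the means, p = 0.262). The 45S ribosomal RNA gene Rn45s took 14.5 to 18.3% of the counts in LSD1 KO libraries and 17.7 to 23.9% in WT libraries (exact permutation p = 0.214). Levels are given as CPM, counts scaled to one common library size after normalization. Correlation of log2 CPM was 0.978 to 0.985 among LSD1 KO libraries, 0.974 to 0.985 among WT libraries and 0.925 to 0.947 between the genotypes. Markers of ESCs, 8 of 8 tested, summed to 2318 to 2531 CPM in LSD1 KO libraries and 2207 to 3272 CPM in WT libraries with none called. Of 8 fibroblast feeder markers, 2 were tested and both were higher, Thy1 and Col1a1. The list summed to 15.2 to 23.6 CPM in LSD1 KO libraries and 1.80 to 3.14 CPM in WT libraries, with Dcn, Postn and Acta2 at 0 in all 9, and its part in the results was not tested.

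One technical measure moved with the genotype. In the fifth of tested genes with the lowest exonic GC content (26.7 to 44.7%), the median deviation from the WT mean was 0.241 to 0.412 on the log2 scale in the 6 LSD1 KO libraries, and −0.143, 0.26 and −0.116 in WT 1, 2 and 3. In the fifth with the highest GC content (56.2 to 78.9%) it was −0.593 to −0.392 in LSD1 KO libraries and 0.266, −0.401 and 0.133 in WT 1, 2 and 3. WT 2 thus followed GC content as the LSD1 KO libraries did, and WT 1 and WT 3 ran the other way. WT 2 also correlated more closely with the LSD1 KO libraries (0.942 to 0.947) than WT 1 and WT 3 did (0.925 to 0.935). Values after removing this trend from every library (a GC correction added after the data were seen) are therefore given beside the counts they move by over 1.5 times and the named genes whose call they end.

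**Figure D1:**
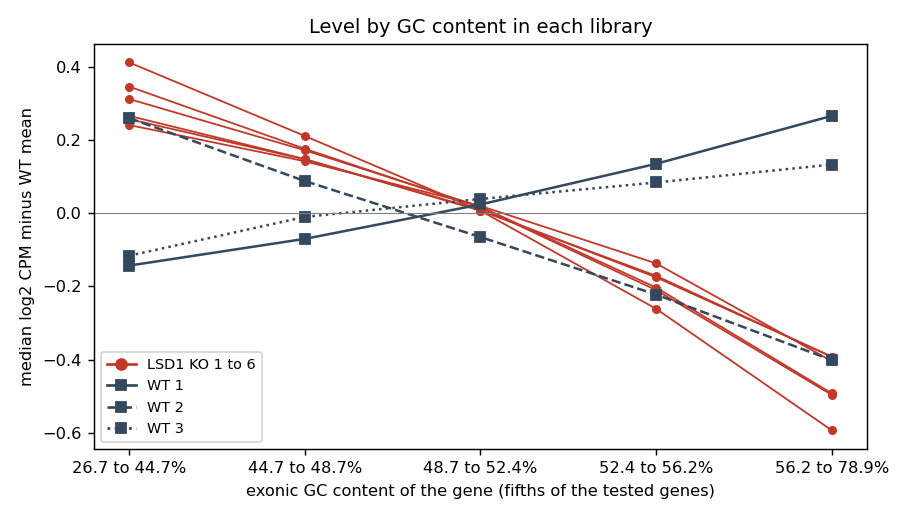
Median log2 CPM minus the WT mean (vertical axis) for tested genes in 5 equal bins of exonic GC content (horizontal axis), one line per library, with the 6 LSD1 KO libraries in red and the 3 WT libraries in dark blue. The LSD1 KO lines and WT 2 fall with GC content, ending between −0.593 and −0.392 and at −0.401, whereas WT 1 and WT 3 end at 0.266 and 0.133.

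The deleted gene was read first. Kdm1a lies at chr4:136106448-136158638, minus strand, of mouse build NCBIM37 (mm9), the build of all coordinates here. The 250 bases before its annotated start are shown because the deletion that defines LSD1 KO cells removed the promoter (chr4:136158639-136158888, minus strand, with no part in capitals).
Kdm1a promoter: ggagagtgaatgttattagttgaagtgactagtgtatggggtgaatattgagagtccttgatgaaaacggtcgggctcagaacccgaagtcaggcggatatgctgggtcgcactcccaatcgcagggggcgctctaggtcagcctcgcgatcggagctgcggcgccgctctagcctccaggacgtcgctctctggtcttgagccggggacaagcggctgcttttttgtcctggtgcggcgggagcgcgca
Kdm1a stood at 3.44 to 6.91 CPM (median 5.60) in LSD1 KO libraries, against 150.2, 178 and 153 CPM in WT 1, 2 and 3. The groups stood far apart, and the LSD1 KO mean was 3.31% of the WT mean. Its log2 fold change (LSD1 KO minus WT, ± standard error) was −4.92 ± 0.18, with an adjusted p of 8.66e-11 (edgeR quasi-likelihood test, Benjamini-Hochberg over all tested genes, as for every adjusted p here). Reads over the exons outside the deletion still count, so the 3.44 to 6.91 CPM left do not measure protein.

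The partners of LSD1 were not called at the RNA level in the main comparison. Protein was not measured here. In the study's Western blots of LSD1 KO ESCs, RCOR2 was down more than 2-fold and RCOR1 moderately, while HDAC1 and HDAC2 changed little. Of 24 tested genes of LSD1 and its complexes, Kdm1a fell and the other 23 were not called, with a list median of −0.10 against 0.003 over all tested genes. The scaffold Rcor1 stood at 38.2 to 50.4 CPM (median 42.2) in LSD1 KO, against 45.5, 42.4 and 36.5 CPM in WT, which overlap. Hdac1 stood at 272 to 294 CPM (median 279.9) in LSD1 KO, against 264, 217 and 332 CPM in WT, and Hdac2 at 197 to 230.2 CPM (median 217) in LSD1 KO, against 168, 250.4 and 189 CPM in WT, so neither deacetylase was apart from WT. The signs of these 3 small differences turned in some settings given at the end. Rcor2, the main RCOR scaffold of ESCs, stood at 114 to 147 CPM (median 132) in LSD1 KO, against 107, 87.8 and 104 CPM in WT. Its log2 fold change was 0.40 ± 0.11 (adjusted p = 0.00525), under the threshold, and 1.02 with the GC correction, which called it. The reader of unmethylated H3 Phf21a (0.83), the repressor Zeb1 (0.96) and Zfp217 (0.73) had the next smallest adjusted p in the list and were not called at 2-fold. None of 21 tested H3K4 methyltransferases, demethylases and enhancer coactivators was called, at a list median of −0.15.

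Psap and Rnf213 served the study as example genes, and both were higher without LSD1. Psap, the gene of prosaposin, from which lysosomes cut their saposins (chr10:59740376-59765348, plus strand), stood at 414 to 516 CPM (median 478) in LSD1 KO libraries, against 216, 170.3 and 154 CPM in WT 1, 2 and 3. Every LSD1 KO library was above every WT library, with a log2 fold change of 1.37 ± 0.13 (adjusted p = 5.7e-07). Rnf213, a giant interferon-inducible ubiquitin ligase (chr11:119251413-119348732, plus strand), stood at 379 to 498 CPM (median 441) in LSD1 KO libraries, against 247, 163 and 172 CPM in WT 1, 2 and 3. The groups did not overlap here either, and the log2 fold change was 1.19 ± 0.14 (adjusted p = 7.64e-06).

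**Figure D2:**
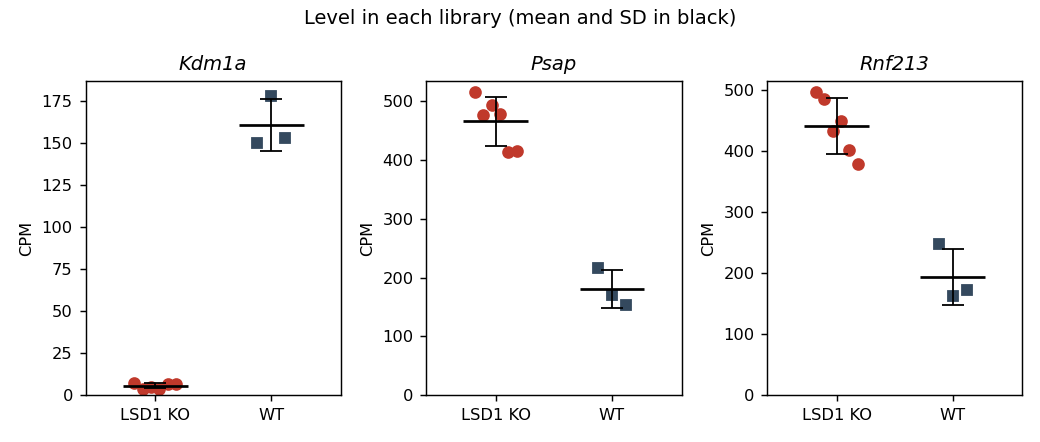
CPM of Kdm1a, Psap and Rnf213 (vertical axes, from 0) in each LSD1 KO library (red circles) and each WT library (dark blue squares), with the mean and SD in black. Kdm1a averages 5.31 CPM in LSD1 KO and 160.5 CPM in WT libraries, and Psap and Rnf213 average 466 and 441 CPM in LSD1 KO against 180.2 and 194 CPM in WT libraries.

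Across 15247 tested genes, 1497 were called higher in LSD1 KO cells (9.82% of those tested) and 951 lower (6.24%), 16.1% in all. A gene was called where its adjusted p was below 0.01 and its fold change above 2, and "rose" and "fell" are used here only of called genes. The 6 LSD1 KO libraries did not overlap the 3 WT libraries in 39.0% of tested genes, 20.3% higher and 18.6% lower. With the GC correction, 1506 were higher (9.89%) and 608 lower (3.99%), and of the main calls 1315 (87.8%) of the higher but 503 (52.9%) of the lower were kept. The share of calls that were higher was 61.2%, and 71.2% with the GC correction. The count of lower genes also rested on the WT library left out: it was 612 without WT 1, 1441 without WT 2 and 669 without WT 3.

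The genes that rose tended to be low in WT cells. Their median level in WT libraries was 0.997 CPM, 749 of them (50.0%) were under 1 CPM there, and 55 had no count in any WT library. By contrast, the genes that fell had a median of 12.5 CPM in WT libraries and 26 of them (2.7%) were under 1 CPM. Over all tested genes the WT median was 15.0 CPM, with 19.6% under 1 CPM. In LSD1 KO libraries the median was 4.10 CPM for genes that rose, 4.46 CPM for those that fell and 13.7 CPM for all tested genes. WT level enters the fold change that defines a call, and genes without a WT count passed the filter through LSD1 KO libraries alone. The low WT levels of genes that rose are thus partly set by the call. More than 8-fold changes made up 389 (26.0%) of the higher calls and 38 (4.0%) of the lower ones. Median exonic GC content was 48.9% for the genes that rose, 56.4% for those that fell and 50.5% for all tested genes.

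Hand1, a basic helix-loop-helix factor of trophoblast giant cells and the early heart, led the higher genes (chr11:57642215-57645649, minus strand). It had 9.62 to 13.3 CPM (median 10.95) in LSD1 KO libraries, 366 to 622 counts each, and no count in WT 1, 2 or 3. Set against a floor of 3 counts over the WT libraries, it was at least 544-fold higher. Slc38a4, an amino acid transporter gene that is imprinted in mouse, reached the highest level among the leaders, 211 to 266 CPM (median 238) in LSD1 KO libraries, against 6.12, 4.78 and 4.91 CPM in WT 1, 2 and 3 (log2 fold change 5.50 ± 0.14, adjusted p = 1.28e-12). Lama4, which encodes a laminin chain of vessel basement membranes, stood at 28.9 to 44.7 CPM (median 34.0) in LSD1 KO, against 0.807, 0.891 and 0.586 CPM in WT (5.54 ± 0.22, adjusted p = 1.33e-10). Dab2, an endocytic adaptor of the visceral endoderm, stood at 7.86 to 22.7 CPM (median 14.5) in LSD1 KO, against 0.392, 0.261 and 0.241 CPM in WT (5.62 ± 0.365, adjusted p = 1.67e-08). In each of these 4 genes the lowest LSD1 KO library was many times above the highest WT library, though the choice of leading genes required that they not overlap.

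Other leaders encode proteins of germ cells, the cytoskeleton and cilia. Brdt, a bromodomain protein of male germ cells, stood at 3.96 to 9.11 CPM (median 5.66) in LSD1 KO, against 0.147, 0.0435 and 0.103 CPM in WT (5.90 ± 0.42). Rcsd1, whose product binds the actin-capping protein CapZ, stood at 18.1 to 21.01 CPM (median 19.8) in LSD1 KO, against 0.245, 0.0217 and 0.155 CPM in WT (7.12 ± 0.31). Trim43a stood at 29.6 to 44.2 CPM (median 34.5) in LSD1 KO, against 0.147, 0.109 and 0.172 CPM in WT (7.91 ± 0.25), and as it has near-identical copies its reads cannot be assigned to it alone. Dcdc2a, a doublecortin-domain protein of microtubules, had a log2 fold change of 6.56 ± 0.42, and Pkhd1, the cilium protein fibrocystin, 5.37 ± 0.26. Stxbp5l, a tomosyn that holds back vesicle fusion, had 6.14 ± 0.48. The aldo-keto reductase gene Akr1cl (5.58 ± 0.35), the transporter gene Mfsd4b1 (5.34 ± 0.30), Gm364 (5.67 ± 0.29) and 4930486L24Rik (5.09 ± 0.31) completed the 14, all called with the GC correction too.

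Among the genes that fell, Fgf17, a fibroblast growth factor of the midbrain and tailbud, followed Kdm1a (chr14:71036010-71042075, minus strand). It stood at 0.256 to 0.735 CPM (median 0.535) in LSD1 KO libraries, against 15.3, 8.22 and 15.6 CPM in WT 1, 2 and 3 (log2 fold change −4.66 ± 0.29, adjusted p = 1.06e-08). Vldlr, a lipoprotein and reelin receptor, stood at 0.645 to 3.07 CPM (median 1.77) in LSD1 KO, against 18.7, 19.3 and 12.8 CPM in WT (−3.20 ± 0.29, adjusted p = 4.8e-07). All LSD1 KO libraries were below all WT libraries in these genes, as the choice of leading genes required.

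Genes of cilia, matrix and the cell surface were among the other leaders that fell. Evc and Evc2, a neighbouring pair whose products pass the hedgehog signal on in cilia, stood at 1.65 to 4.52 CPM (median 2.17) in LSD1 KO, against 20.1, 21.4 and 27.1 CPM in WT (−3.17 ± 0.25), and at 0.873 to 2.06 CPM (median 1.24) in LSD1 KO, against 13.8, 10.52 and 17.5 CPM in WT (−3.36 ± 0.25). Both members of the pair fell by a like size. Frem2, a matrix protein mutated in Fraser syndrome, had a log2 fold change of −3.58 ± 0.23 and the glypican gene Gpc6 −3.21 ± 0.28. The calcitonin gene Calca had −3.52 ± 0.24, the keratin gene Krt17 −3.35 ± 0.37 and Wdr86 −3.38 ± 0.29. The cystine transporter gene Slc7a11 (−3.16 ± 0.30) and the tailbud homeobox gene Nkx1-2 (−3.06 ± 0.24) are taken up with their pathways. All 12 leading genes given kept their call with the GC correction.

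**Figure D3:**
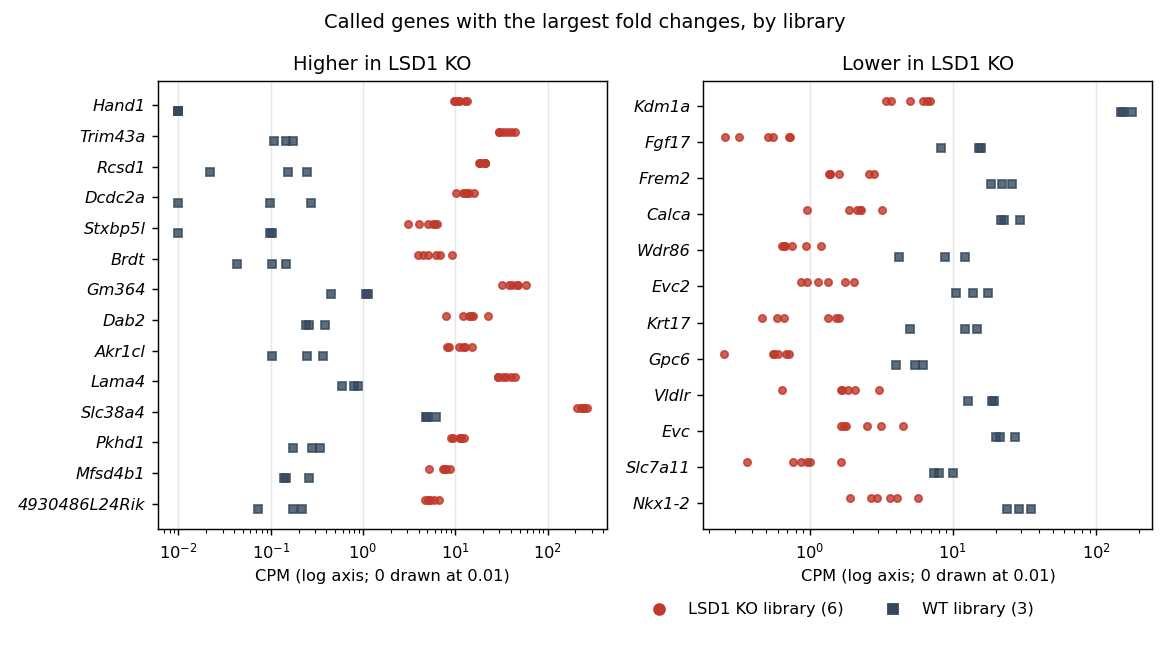
CPM on a log axis, with 0 drawn at 0.01, of 14 leading called genes that rose (left) and 12 that fell (right) in each LSD1 KO library (red circles) and each WT library (dark blue squares). No LSD1 KO library overlaps a WT library in any of these genes, as the choice of these genes required, and Hand1 is at 0 in all WT libraries.

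The gene lists below were compared by the share of their tested members called in each direction, with 9.82% higher and 6.24% lower over all tested genes as the background. Members under the expression filter were left out. In lists near 0 in WT cells, the filter keeps members that are high in LSD1 KO and drops those low in both. This can raise the share called higher. Tested were 17 of 26 2-cell-like, 21 of 34 Hox and 12 of 20 trophoblast members. Because each library pools many cells, more RNA per cell and more cells of a type cannot be told apart.

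**Figure D4:**
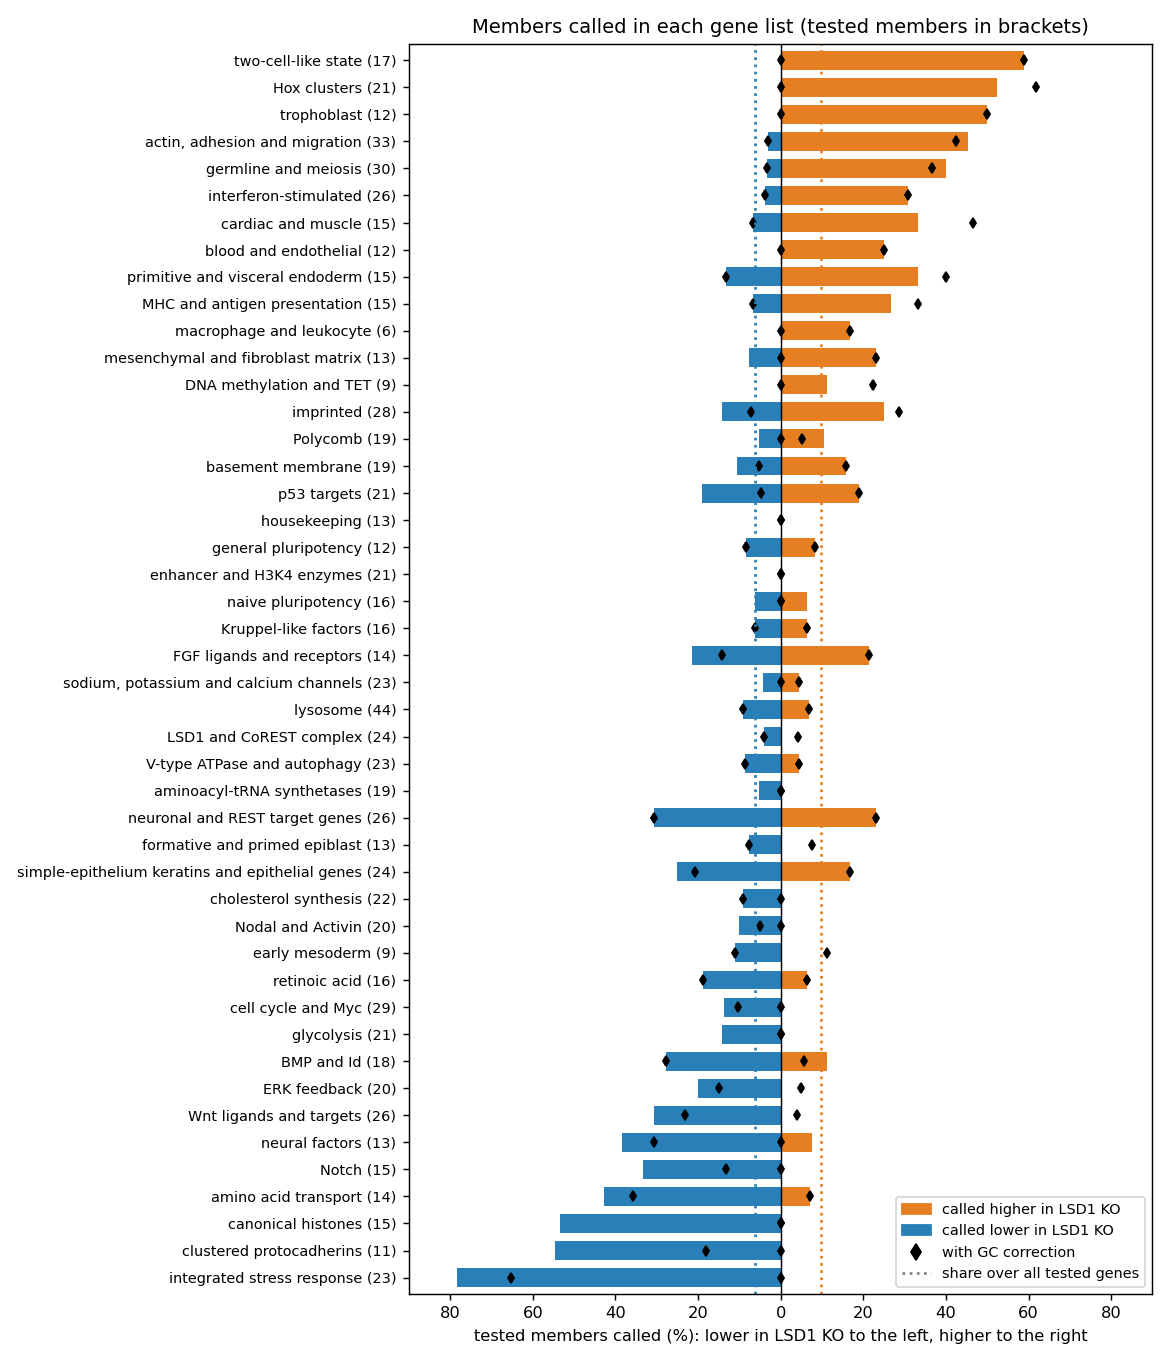
Share of tested members called higher (orange, to the right) or lower (blue, to the left) in LSD1 KO cells for each gene list, in percent, with the number of tested members in brackets, black diamonds for the shares with the GC correction and dotted lines at the shares over all tested genes. The 2-cell-like, Hox and trophoblast lists reach the highest shares called higher (10 of 17, 11 of 21 and 6 of 12), and the integrated stress response list the highest share called lower (18 of 23).

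Genes of the trophoblast, the lineage of the placenta, rose without LSD1 in 6 of 12 tested members and fell in none, at a list median of 1.11. Besides Hand1, the zinc finger factor Gata3 stood at 4.47 to 11.9 CPM (median 6.93) in LSD1 KO, against 0.294, 0.348 and 0.207 CPM in WT (4.84 ± 0.38). Plac8, a cysteine-rich placental gene, stood at 13.6 to 17.7 CPM (median 14.8) in LSD1 KO, against 0.294, 0.304 and 0.914 CPM in WT (4.85 ± 0.30), and the placental homeobox gene Esx1 at 3.54 to 7.62 CPM (median 5.45) in LSD1 KO, against 1.76, 1.48 and 0.586 CPM in WT (2.14 ± 0.35). Tfap2a, an AP-2 factor of the trophoblast and neural crest, was expressed in WT cells already and stood at 29.5 to 52.8 CPM (median 41.6) in LSD1 KO, against 11.01, 11.2 and 8.48 CPM in WT (2.05 ± 0.18). Of the 6 fixed trophoblast markers only Hand1 and Gata3 rose. Tfap2c, the largest, was lower but not called, at 41.5 to 48.4 CPM in LSD1 KO, against 87.9, 73.3 and 75.1 CPM in WT. Eomes overlapped, at 7.58 to 10.6 CPM in LSD1 KO, against 8.61, 7.17 and 8.72 CPM in WT. Cdx2 (0 to 0.12 CPM in LSD1 KO, against 0.343, 0.087 and 0.483 CPM in WT) and Elf5 were under the filter. The markers summed to 66.1 to 78.2 CPM in LSD1 KO libraries and 80.9 to 97.3 CPM in WT libraries. The rise was thus not shared by the markers as a set or as a sum.

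Of 21 tested Hox genes, the homeobox clusters that set position along the body axis, 11 rose and none fell, at a median of 2.20 (13 rose with the GC correction). Hoxd9 stood at 5.85 to 9.38 CPM (median 7.64) in LSD1 KO, against 0.832, 0.565 and 0.345 CPM in WT (3.75 ± 0.28, adjusted p = 7e-08). Hoxd8 stood at 2.69 to 4.41 CPM (median 3.995) in LSD1 KO, against 0.758, 0.391 and 0.345 CPM in WT (2.98 ± 0.31), Hoxd4 at 3.17 to 4.58 CPM (median 3.62) in LSD1 KO, against 0.245, 0.261 and 0.414 CPM in WT (3.59 ± 0.30) and Hoxa10 at 1.33 to 3.49 CPM (median 2.08) in LSD1 KO, against 0.0979, 0.174 and 0.069 CPM in WT (4.28 ± 0.47). All of these levels were low, with every WT library under 1 CPM, whereas Hoxc4 was the most abundant of those named at 15.4 to 20.4 CPM (median 17.7) in LSD1 KO, against 7.37, 7.65 and 4.09 CPM in WT (1.48 ± 0.19).

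Genes of other lineages were called in both directions. Of 15 tested genes of the primitive and visceral endoderm, the extraembryonic endoderm, 5 rose and 2 fell (median 1.17). The nuclear receptor Hnf4a stood at 3.44 to 10.7 CPM (median 6.01) in LSD1 KO, against 0.636, 0.957 and 0.81 CPM in WT (2.975 ± 0.37), and the endocytic receptor Lrp2 at 48.8 to 68.8 CPM (median 55.5) in LSD1 KO, against 13.4, 14.04 and 11.03 CPM in WT (2.135 ± 0.14). The lipoprotein gene Apoe fell, at 77.9 to 121 CPM (median 95.9) in LSD1 KO, against 372, 229 and 405 CPM in WT (−1.77 ± 0.16), as did the factor Sox7 (−2.96 ± 0.54) at levels under 1 CPM in most libraries. Cardiac and muscle genes rose in 5 of 15 and fell in 1. The heavy chain of atrial myosin, Myh6, had a log2 fold change of 4.735 ± 0.42 at 1.69 to 3.01 CPM (median 2.21) in LSD1 KO, against 0.147, 0.0435 and 0.069 CPM in WT, and the intermediate filament gene Des 1.35 ± 0.25. Blood and endothelial genes rose in 3 of 12. Gata1, the master factor of red cells, stood at 4.04 to 7.74 CPM (median 6.96) in LSD1 KO, against 0.0489, 0.261 and 0.31 CPM in WT (4.83 ± 0.41, adjusted p = 2.86e-07), and the angiopoietin receptor Tek at 20.2 to 29.8 CPM (median 22.4) in LSD1 KO, against 8.76, 8.59 and 10.98 CPM in WT (1.30 ± 0.15). Runx1 passed in the full set of libraries (1.17 ± 0.33) but lost its call when any of LSD1 KO 1, 3, 4 or 6 or any WT library was left out (1.07 to 1.19), and with the GC correction (0.94). In early mesoderm, by contrast, none of 9 rose (1 with the GC correction), and the brachyury gene T fell (−2.47 ± 0.64), a call lost without LSD1 KO 1 (−2.26), LSD1 KO 5 (−2.30) or WT 1 (−2.32).

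Genes of the 2-cell-like state, a rare ESC state that expresses genes of the cleaving embryo, rose in 10 of 17 tested members, with a median of 2.99 and none lower. Pramel7, which promotes naive pluripotency, stood at 32.5 to 38.4 CPM (median 34.2) in LSD1 KO, against 2.13, 1.67 and 1.55 CPM in WT (4.29 ± 0.15, adjusted p = 5.62e-11). Zscan4c stood at 0.663 to 2.58 CPM (median 1.20) in LSD1 KO, against 0.0489, 0.174 and 0.103 CPM in WT (3.60 ± 0.60), and Zscan4d at 0.482 to 2.03 CPM (median 0.932) in LSD1 KO, against 0.0489, 0 and 0.155 CPM in WT (3.77 ± 0.77). These Zscan4 genes, which mark the state and act at telomeres, stayed under 3 CPM in every library. Zscan4, Trim43, Pramel and Gm8300 genes have near-identical copies, so how the reads were shared among copies is uncertain.

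Germline and meiosis genes rose in 12 of 30 tested members and 1 fell (median 1.085). Tex11, an X-linked meiotic recombination gene, stood at 10.8 to 24.5 CPM (median 16.8) in LSD1 KO libraries, against 3.23, 3.74 and 2.83 CPM in WT 1, 2 and 3 (2.385 ± 0.24, adjusted p = 1.28e-06). Smc1b, the meiotic cohesin subunit, stood at 4.49 to 11.6 CPM (median 7.47) in LSD1 KO, against 2.01, 2.52 and 1.26 CPM in WT (1.99 ± 0.29), and Hormad1, which coats unpaired meiotic chromosomes, at 26.5 to 39.6 CPM (median 30.7) in LSD1 KO, against 9.37, 12.8 and 8.04 CPM in WT (1.67 ± 0.18). Stk31 stood at 28.4 to 31.8 CPM (median 30.5) in LSD1 KO, against 10.1, 14.5 and 7.26 CPM in WT (1.51 ± 0.17), and the X-linked Usp26 at 9.15 to 19.8 CPM (median 11.8) in LSD1 KO, against 3.89, 4.46 and 1.52 CPM in WT (1.95 ± 0.33). WT levels of several were well above 1 CPM, so these were not silent genes in WT cells. Xlr3a, Xlr3b and Xlr3c, near-identical copies on the X chromosome, had 1.93, 2.43 and 3.33 and cannot be told apart by their reads with certainty. The cohesin gene Stag3 fell (−1.05 ± 0.11), a call lost without LSD1 KO 1 (−0.98) or WT 1 (−0.93).

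The letters CACGTG, the E-box that several germline repressors bind in mouse ESCs, were searched on both strands in the 250 bases before each start. They occurred in 11 of 30 promoters of the germline list (36.7%) and in 8.11% of all 15226 promoters searched, and in 7.04% of those of genes that rose. Of the 13 called germline genes 5 held a match, 4 that rose and Stag3, which fell. The lysosome list, where calls were near the background, held a match in 14 of 44 promoters (31.8%). Stretches around the match are shown for the 4 germline genes that rose, to let the letters be read in place. The E-box is in capitals, and the stretches are on the strands of their genes. They lie at chr3:102740072-102740157, minus strand (Sycp1), chr3:95363502-95363598, plus strand (Hormad1), chr6:49345443-49345528, plus strand (Stk31) and chr5:107760095-107760180, plus strand (Brdt).
Sycp1: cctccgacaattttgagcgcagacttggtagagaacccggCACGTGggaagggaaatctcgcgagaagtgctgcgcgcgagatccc
Hormad1: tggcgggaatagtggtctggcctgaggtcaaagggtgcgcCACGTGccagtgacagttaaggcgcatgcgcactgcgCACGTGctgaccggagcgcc
Stk31: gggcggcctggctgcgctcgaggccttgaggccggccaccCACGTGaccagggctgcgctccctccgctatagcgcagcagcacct
Brdt: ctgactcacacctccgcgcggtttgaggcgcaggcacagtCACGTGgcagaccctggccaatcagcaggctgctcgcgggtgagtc

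Imprinted genes, expressed from one parental copy, rose in 7 of 28 and fell in 4, or 8 and 2 with the GC correction. Peg10, a retrotransposon-derived gene needed for the placenta, stood at 84.6 to 177 CPM (median 133) in LSD1 KO, against 17.4, 38.9 and 31.6 CPM in WT (2.15 ± 0.27, adjusted p = 1.6e-05), and its neighbour Sgce at 2.16 to 5.37 CPM (median 2.66) in LSD1 KO, against 0.22, 0.739 and 0.914 CPM in WT (2.41 ± 0.45). Mest (1.415 ± 0.18), the zinc finger gene Plagl1 (1.31 ± 0.17) and Usp29 (1.855 ± 0.21) also rose. Grb10, an inhibitor of insulin signalling and growth, fell to 16.8 to 28.04 CPM (median 20.8) in LSD1 KO, against 52.5, 60.3 and 58.3 CPM in WT (−1.42 ± 0.14). The cell cycle inhibitor gene Cdkn1c fell (−1.40 ± 0.28), which the GC correction made −0.96 and not called.

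Genes of actin, adhesion and migration rose in 15 of 33 tested members and 1 fell (median 0.88). Lcp1, an actin-bundling plastin of blood cells, stood at 33.9 to 48.9 CPM (median 36.4) in LSD1 KO, against 7.02, 4.87 and 4.26 CPM in WT (2.85 ± 0.18). Itgb3, the integrin beta chain that pairs with alpha V, stood at 16.4 to 25.0 CPM (median 21.2) in LSD1 KO, against 2.03, 2.50 and 1.603 CPM in WT (3.33 ± 0.20). Its partner Itgav rose as well, at 184 to 213 CPM (median 192) in LSD1 KO, against 86.8, 90.7 and 68.0 CPM in WT (1.25 ± 0.11), though under 2-fold with the GC correction (0.96). The fibronectin receptor chain Itga5 instead fell, at 10.3 to 14.6 CPM (median 12.2) in LSD1 KO, against 43.5, 24.9 and 34.5 CPM in WT (−1.49 ± 0.16), so integrins did not move one way. The annexins Anxa1 (2.71 ± 0.14) and Anxa2 (2.32 ± 0.29), and the YAP target genes Ccn1 (2.01 ± 0.19) and Ccn2 (1.401 ± 0.18), rose, as did thymosin beta 4, Tmsb4x (1.29 ± 0.16).

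Matrix and epithelial genes split in both directions. Among 19 tested basement membrane genes, Lama4, Lama3 and Lamb1 rose and 2 fell (1 with the GC correction). Lamb1, the laminin beta chain of the early embryo, stood at 153 to 222 CPM (median 188) in LSD1 KO, against 62.7, 59.8 and 54.5 CPM in WT (1.665 ± 0.12), and Lama3 at 62.9 to 81.7 CPM (median 75.8) in LSD1 KO, against 22.97, 19.2 and 20.1 CPM in WT (1.83 ± 0.12). Lama1, the alpha chain that pairs with it in the early embryo, instead stood at 27.9 to 30.6 CPM (median 29.3) in LSD1 KO, against 156, 99.4 and 108 CPM in WT (−2.04 ± 0.12). The collagen receptor Ddr2 was among the largest mesenchymal changes at 126 to 159 CPM (median 140.3) in LSD1 KO, against 11.3, 10.3 and 4.19 CPM in WT (4.05 ± 0.26, adjusted p = 1.31e-08), while Fn1, fibronectin, was not called (−0.59). Thy1 stood at 12.7 to 19.2 CPM (median 17.2) in LSD1 KO, against 2.50, 1.17 and 2.79 CPM in WT (2.95 ± 0.25) and Col1a1 at 1.18 to 3.97 CPM (median 2.77) in LSD1 KO, against 0.343, 0.587 and 0.345 CPM in WT (2.585 ± 0.43), both also feeder markers.

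Of 24 tested epithelial genes, 4 rose and 6 fell. Grhl2, a master regulator of epithelial genes, stood at 12.7 to 17.3 CPM (median 15.8) in LSD1 KO, against 1.35, 1.15 and 1.97 CPM in WT (3.36 ± 0.20, adjusted p = 8.11e-09). The adhesion gene Epcam (1.17 ± 0.11), the desmosome gene Dsp (1.185 ± 0.12) and the keratin gene Krt18 (2.40 ± 0.30) rose with it. Krt8, whose product pairs with that of Krt18, was not called, at 14.8 to 28.04 CPM (median 18.8) in LSD1 KO, against 17.1, 12.9 and 19.5 CPM in WT (0.28 ± 0.20). The keratin genes Krt7 (−3.69 ± 0.49), Krt17 (−3.35 ± 0.37), Krt19 (−1.955 ± 0.39) and Krt42 (−2.595 ± 0.17) fell, so keratins divided by member.

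Interferon-stimulated genes rose in 8 of 26 tested members and fell in 1, with a median of 0.58. Besides Rnf213, Parp14, an ADP-ribosyltransferase of the antiviral response, stood at 24.3 to 28.4 CPM (median 26.4) in LSD1 KO, against 6.04, 5.35 and 5.55 CPM in WT (2.23 ± 0.13, adjusted p = 5.49e-09). Its relative Parp9 stood at 39.6 to 46.4 CPM (median 44.0) in LSD1 KO, against 13.1, 12.8 and 14.2 CPM in WT (1.69 ± 0.11), and Dtx3l, the ubiquitin ligase that pairs with Parp9, at 59.4 to 72.2 CPM (median 67.0) in LSD1 KO, against 23.8, 36.1 and 21.4 CPM in WT (1.29 ± 0.15). Ube2l6, which conjugates the ubiquitin-like ISG15, stood at 32.7 to 47.8 CPM (median 37.6) in LSD1 KO, against 3.92, 5.98 and 4.40 CPM in WT (3.02 ± 0.17). These 4 were expressed at several CPM or more in WT cells and rose in every LSD1 KO library. Oasl2 (2.205 ± 0.47) and Ifi35 (1.335 ± 0.16) rose too, whereas the nucleic acid sensor gene Zbp1 fell (−1.21 ± 0.30), a call lost without WT 1 (−1.18) or WT 3 (−0.93). The interferon-stimulated response element, searched as 2 GAAA runs spaced by a pair of free bases on either strand, occurred before 7 of 26 of these genes (26.9%), 2 of them among the 9 called, and before 2.61% of all.

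Antigen presentation genes rose in 4 of 15 and 1 fell (median 1.29). B2m, the light chain of MHC class I, stood at 11.4 to 16.3 CPM (median 14.7) in LSD1 KO, against 4.26, 3.52 and 6.81 CPM in WT (1.53 ± 0.21), and the class II gene H2-Eb1 at 9.71 to 14.2 CPM (median 12.1) in LSD1 KO, against 0.832, 0.13 and 0.828 CPM in WT (4.33 ± 0.36). The class I gene H2-D1 (1.18 ± 0.25) and the class II invariant chain Cd74 (2.79 ± 0.55) rose at low levels, and MHC class I genes share sequence, so the split of reads among them is uncertain. Psmb10, a subunit of the immunoproteasome, fell to 2.06 to 3.60 CPM (median 2.74) in LSD1 KO, against 10.01, 6.74 and 15.6 CPM in WT (−1.91 ± 0.24). Leukocyte markers fixed for the check summed to 4.76 to 6.89 CPM in LSD1 KO libraries and 10.4 to 13.5 CPM in WT libraries, with Csf1r and Tyrobp at 0 in all 9 libraries.

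Psap did not stand for the lysosome as a whole. Of 44 tested lysosomal genes 3 rose and 4 fell, near the background, at a median of −0.17. The protease gene Ctsl stood at 278 to 327 CPM (median 306) in LSD1 KO, against 102, 153 and 88.0 CPM in WT (1.403 ± 0.15) and the lipase gene Lipa at 5.95 to 18.04 CPM (median 9.05) in LSD1 KO, against 1.395, 2.63 and 2.97 CPM in WT (2.10 ± 0.37). Tfeb, the master factor of lysosomal genes, fell to 12 to 17.3 CPM (median 13.8) in LSD1 KO, against 65.3, 29.5 and 63.1 CPM in WT (−1.91 ± 0.19), with the sulfatase gene Arsa (−1.93 ± 0.26). The sialidase gene Neu1 fell (−1.13 ± 0.19), a call lost without WT 1 (−0.95). In the V-type ATPase and autophagy list the ATG8 homologue Gabarapl2 alone rose, at 267 to 321 CPM (median 289.8) in LSD1 KO, against 59.0, 76.1 and 51.5 CPM in WT (2.22 ± 0.13, adjusted p = 7.06e-09), and the proton pump subunit gene Tcirg1 was among the 2 that fell (−1.93 ± 0.22).

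The largest group that fell was that of the integrated stress response, in which the factor ATF4 turns on amino acid supply and stress genes. Of 23 tested members 18 fell and none rose. All 23 had a negative log2 fold change, as did 7591 of all 15247 tested genes. In 21 of the 23 the genotypes did not overlap, against 39.0% of all tested genes (18.6% lower). The list median was −1.48 and its range −3.20 to −0.38. With the GC correction 15 fell, at a median of −1.10.

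Its members are taken by role. Atf4 itself stood at 148 to 173 CPM (median 155) in LSD1 KO libraries, against 339.9, 299 and 341 CPM in WT 1, 2 and 3. Its log2 fold change of −1.04 ± 0.09 (adjusted p = 3.02e-07) lay at the threshold, and the call was lost with the GC correction (−0.89) and without LSD1 KO 1 (−0.98) or WT 1 (−0.98). The pseudokinase gene Trib3, a feedback inhibitor of the response, stood at 9.49 to 16.7 CPM (median 15.0) in LSD1 KO, against 85.2, 50.5 and 66.2 CPM in WT (−2.23 ± 0.17, adjusted p = 6.26e-08). Chac1, which degrades glutathione, stood at 1.69 to 5.29 CPM (median 3.71) in LSD1 KO, against 38.8, 25.8 and 21.9 CPM in WT (−2.97 ± 0.24, adjusted p = 1.84e-07). The secreted stanniocalcin Stc2 stood at 2.06 to 3.92 CPM (median 3.32) in LSD1 KO, against 27.8, 31.2 and 18.9 CPM in WT (−3.03 ± 0.20, adjusted p = 1.67e-08), and the factor Ddit3 (CHOP) at 1.87 to 3.92 CPM (median 2.62) in LSD1 KO, against 6.95, 7.93 and 4.98 CPM in WT (−1.24 ± 0.25). In none of these did an LSD1 KO library reach a WT library.

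Enzymes of amino acid and folate metabolism fell too. Psat1, which makes phosphoserine, stood at 164 to 258 CPM (median 211) in LSD1 KO, against 522, 609.6 and 603 CPM in WT (−1.43 ± 0.13). Shmt2 stood at 92.4 to 110.1 CPM (median 102) in LSD1 KO, against 339.9, 237 and 293 CPM in WT (−1.51 ± 0.105) and Mthfd2 at 47.4 to 61.1 CPM (median 54.9) in LSD1 KO, against 152, 179 and 154 CPM in WT (−1.58 ± 0.10), both enzymes of mitochondrial folate metabolism. Phgdh, the first enzyme of serine synthesis (−0.60), and Asns, asparagine synthetase (−0.77), also stood lower but under the 2-fold threshold.

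Of 14 tested amino acid transporters 6 fell, among them Slc7a11, which is also counted in the integrated stress response list. Slc7a5, the light chain of the large neutral amino acid exchanger, stood at 170.2 to 194 CPM (median 185) in LSD1 KO, against 625, 402 and 459.9 CPM in WT (−1.43 ± 0.12). Its heavy chain Slc3a2 stood at 146 to 167 CPM (median 154) in LSD1 KO, against 333, 288 and 286 CPM in WT (−0.97 ± 0.09), just under the threshold. The glycine transporter Slc6a9 stood at 2.29 to 3.17 CPM (median 2.96) in LSD1 KO, against 22.8, 12.4 and 15.3 CPM in WT (−2.57 ± 0.19), and the neutral transporter Slc1a4 at 9.68 to 14.2 CPM (median 12.9) in LSD1 KO, against 45.0, 33.4 and 38.1 CPM in WT (−1.63 ± 0.13). The glutamine transporter Slc1a5 fell (−1.12 ± 0.13), a call lost with the GC correction (−0.78) and without WT 1 (−0.88). Slc38a4 was the exception that rose. Aminoacyl-tRNA synthetases, which load tRNAs, had a median of −0.38, and 1 of 19 fell, Cars (−1.07), whose call was lost with the GC correction (−0.94) and without WT 1 (−0.93).

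**Figure D5:**
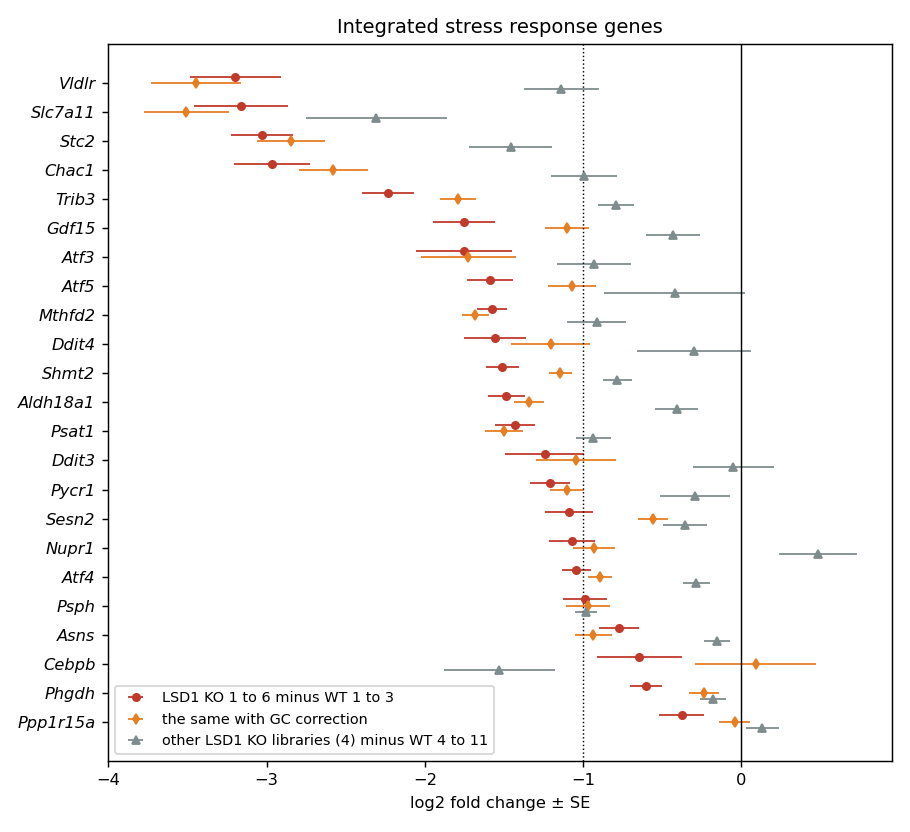
Log2 fold change (horizontal axis, ± standard error) of the 23 integrated stress response genes in LSD1 KO 1 to 6 minus WT 1 to 3 (red circles), in the same libraries with the GC correction (orange diamonds) and in the 4 other LSD1 KO libraries minus WT 4 to 11 (grey triangles), with a dotted line at 2-fold lower. Every red value is below 0, between −3.20 and −0.38, and 4 of the grey values were called lower.

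The composite ATF4 and C/EBP element was searched in the same promoters as TGATGNAA on both strands. It occurred before 6 of the 23 genes of this list (26.1%), 5 of them among the 18 that fell, before 3.16% of all genes that fell and before 2.04% of all promoters. The stretches of the 5 that fell are shown to set the element beside the values, with the matched letters in capitals (TTGCATCA is the element read on the other strand). They lie at chr1:193007275-193007362, minus strand (Atf3), chr2:119176745-119176832, plus strand (Chac1), chr11:120505118-120505205, minus strand (Pycr1), chr3:50247536-50247641, minus strand (Slc7a11, 2 matches) and chr7:133769047-133769134, minus strand (Nupr1).
Atf3: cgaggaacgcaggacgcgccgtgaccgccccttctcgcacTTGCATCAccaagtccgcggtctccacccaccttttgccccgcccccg
Chac1: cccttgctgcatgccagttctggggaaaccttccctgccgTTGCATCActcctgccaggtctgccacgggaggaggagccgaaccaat
Pycr1: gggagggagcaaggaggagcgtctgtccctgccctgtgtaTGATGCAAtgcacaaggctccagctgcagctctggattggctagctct
Slc7a11: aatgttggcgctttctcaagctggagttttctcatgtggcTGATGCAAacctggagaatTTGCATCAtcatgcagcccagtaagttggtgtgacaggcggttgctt
Nupr1: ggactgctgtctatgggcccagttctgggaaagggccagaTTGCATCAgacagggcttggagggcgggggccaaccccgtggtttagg
Their log2 fold changes were −1.75 for Atf3, −2.97 for Chac1, −1.21 for Pycr1, −3.16 for Slc7a11 and −1.07 for Nupr1. The stress factor gene Nupr1 was lower by −0.93 with the GC correction, which did not call it. A match is a run of letters and not a measured site.

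Genes of central metabolism shifted by less. Of 21 glycolysis genes 3 fell and none rose, and none was called with the GC correction. Pfkl, liver phosphofructokinase, stood at 37.1 to 44.0 CPM (median 41.1) in LSD1 KO, against 111, 60.8 and 121 CPM in WT (−1.25 ± 0.16, and −0.90 with the GC correction). Gapdh stood at 1294 to 1512 CPM (median 1410.0) in LSD1 KO, against 2977, 1755 and 3859 CPM in WT (−1.04 ± 0.17, and −0.69 with the GC correction), a call lost also without LSD1 KO 1 (−0.97), WT 1 (−0.97) or WT 3 (−0.76). In the cholesterol list 2 of 22 fell, among them the mevalonate enzyme gene Mvd (−1.40 ± 0.16, and −0.88 with the GC correction).

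Wnt ligands and targets fell in 8 of 26 tested members and rose in none (median −0.62), with 6 called lower and 1 higher with the GC correction. The medium holds a GSK3 inhibitor, which switches this pathway on in both genotypes. The feedback inhibitor Notum stood at 23.6 to 47.9 CPM (median 31.6) in LSD1 KO, against 90.8, 77.4 and 98.9 CPM in WT (−1.40 ± 0.19, and −0.98 with the GC correction). Sp5, a direct Wnt target, stood at 1.24 to 3.61 CPM (median 3.30) in LSD1 KO, against 18.6, 12.8 and 20.1 CPM in WT (−2.585 ± 0.26), the factor Tcf7 at 17.5 to 23.6 CPM (median 21.7) in LSD1 KO, against 70.4, 42.0 and 56.3 CPM in WT (−1.40 ± 0.14) and Nkx1-2 at 1.92 to 5.75 CPM (median 3.30) in LSD1 KO, against 23.8, 35.0 and 28.9 CPM in WT. The homeobox gene Cdx1 fell at lower levels (−2.36 ± 0.44), while the classic target Axin2 stood at 31.5 to 54.7 CPM (median 47.2) in LSD1 KO, against 90.8, 85.9 and 75.5 CPM in WT (−0.93 ± 0.14), under the threshold. The TCF and LEF letters CTTTGAT occurred before 5 of the 26 (19.2%), 3 of them among the 8 called, and before 2.32% of all promoters.

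Growth factor signalling genes moved both ways. In the FGF list 3 of 14 rose and 3 fell. Klb, the FGF co-receptor beta-Klotho, stood at 10.4 to 13.5 CPM (median 12.4) in LSD1 KO, against 0.881, 0.913 and 1.38 CPM in WT (3.51 ± 0.21, adjusted p = 7.25e-09), and Fgf13 rose too (1.87 ± 0.34). Fgf17 and the receptor gene Fgfr2 fell, the receptor to 0.516 to 0.937 CPM (median 0.716) in LSD1 KO, against 3.38, 4.20 and 5.81 CPM in WT (−2.62 ± 0.27). Of 20 ERK feedback genes 4 fell and none rose (3 and 1 with the GC correction), among them the ETS factor Etv4 at 3.84 to 5.15 CPM (median 4.12) in LSD1 KO, against 22.7, 12.8 and 18.97 CPM in WT (−2.09 ± 0.17) and Spry4 (−1.42 ± 0.22). The phosphatase gene Dusp6 fell (−1.05 ± 0.24), a call lost without LSD1 KO 1 (−0.93), 3 (−0.99) or 5 (−0.97) or WT 3 (−0.91).

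In the BMP list 5 of 18 fell and 2 rose. Id1, a direct BMP target, stood at 0.516 to 1.08 CPM (median 0.795) in LSD1 KO, against 4.06, 1.96 and 4.04 CPM in WT (−2.08 ± 0.30), whereas its relative Id2 stood at 3.58 to 5.50 CPM (median 4.74) in LSD1 KO, against 1.08, 2.56 and 2.14 CPM in WT (1.28 ± 0.26, and 0.99 with the GC correction). The ligand gene Bmp7 (−1.51 ± 0.23) and the BMP antagonist gene Chrd (−1.85 ± 0.29) fell. Bmp4 rose just past the threshold (1.10 ± 0.20), a call lost without WT 1 (0.95). In Notch, 5 of 15 fell and none rose, and 2 fell with the GC correction. The ligand gene Jag1 stood at 20 to 28.3 CPM (median 26.7) in LSD1 KO, against 63.0, 62.2 and 59.4 CPM in WT (−1.27 ± 0.11), and Lfng, which adds sugars to Notch receptors, at 0.258 to 0.894 CPM (median 0.629) in LSD1 KO, against 5.68, 4.43 and 3.41 CPM in WT (−2.88 ± 0.33). In retinoic acid, 3 of 16 fell, with the receptor gene Rara at 13.9 to 16.7 CPM (median 15.6) in LSD1 KO, against 116, 52.6 and 89.8 CPM in WT (−2.48 ± 0.17, adjusted p = 2.64e-08). Among Nodal genes, 2 of 20 fell, Lefty1 at 20.6 to 26.6 CPM (median 21.4) in LSD1 KO, against 75.8, 38.1 and 116 CPM in WT (−1.74 ± 0.22) and Foxh1 (−1.465 ± 0.21, and −0.92 with the GC correction).

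The pluripotency network stayed mostly within 2-fold. Of 12 general factors 1 rose and 1 fell, and of 16 naive factors 1 rose and 1 fell, with none of the 16 called with the GC correction. Pou5f1 stood at 239 to 268 CPM (median 253) in LSD1 KO, against 429, 269.9 and 475 CPM in WT (−0.63 ± 0.13), Sox2 at 246 to 274 CPM (median 266) in LSD1 KO, against 304, 302 and 284 CPM in WT (−0.17 ± 0.08) and Nanog at 837 to 1038 CPM (median 905) in LSD1 KO, against 484, 618 and 581 CPM in WT (0.70 ± 0.11). None of these 3 core factors was called. Esrrb stood at 315 to 354 CPM (median 336) in LSD1 KO, against 675, 403 and 674 CPM in WT (−0.80 ± 0.13), not called, though it passed without WT 2 (−1.005). Lin28a, which blocks maturation of let-7 and is the exception in the general list, fell to 50.3 to 96.1 CPM (median 62.8) in LSD1 KO, against 164, 257 and 227 CPM in WT (−1.66 ± 0.18, adjusted p = 3.22e-06), and Dppa2 rose to 61.3 to 82.6 CPM (median 69.6) in LSD1 KO, against 20.6, 32.0 and 29.8 CPM in WT (1.36 ± 0.14). The maternal gene Dppa3 rose (1.13 ± 0.15, and 0.84 with the GC correction), and the orphan receptor gene Nr0b1 fell (−1.19 ± 0.19, and −0.93 with the GC correction), a call lost also without WT 3 (−0.91). Klf17, a factor of the early embryo, was the only Kruppel-like factor of 16 to rise, at 5.92 to 10.1 CPM (median 8.71) in LSD1 KO, against 0.44, 0.348 and 0.655 CPM in WT (4.12 ± 0.27).

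Neural factors fell in 5 of 13 tested members and 1 rose (4 and 0 with the GC correction), at a median of −0.91. Olig2, a factor of motor neuron and oligodendrocyte precursors, stood at 4.64 to 9.05 CPM (median 5.66) in LSD1 KO libraries, against 37.3, 23.9 and 31.2 CPM in WT 1, 2 and 3 (−2.31 ± 0.20, adjusted p = 2.93e-07), and its neighbour Olig1 at 2.21 to 3.30 CPM (median 2.66) in LSD1 KO, against 11.8, 6.22 and 10.9 CPM in WT (−1.83 ± 0.21). Gbx2 (−1.83 ± 0.20) and Pax6 (−3.55 ± 0.58) fell too, Pax6 at WT levels of only 1.17 to 2.00 CPM. Neuronal and REST target genes rose in 6 of 26 and fell in 8, so this mixed list did not move one way. Binding of REST to its members was not tested. The neurofilament genes Nefl, at 35.1 to 49.7 CPM (median 46.4) in LSD1 KO, against 16.3, 15.5 and 19.6 CPM in WT (1.37 ± 0.13), and Nefm (2.56 ± 0.30) rose. The atypical cadherin gene Celsr3 stood at 6.99 to 13.5 CPM (median 10.48) in LSD1 KO, against 44.1, 25.5 and 37.3 CPM in WT (−1.78 ± 0.19), the synaptic gene Unc13a at 3.54 to 4.79 CPM (median 3.84) in LSD1 KO, against 24.9, 16.2 and 15.3 CPM in WT (−2.26 ± 0.17), and Gad1, which makes the transmitter GABA, at 0.668 to 1.87 CPM (median 0.964) in LSD1 KO, against 4.36, 5.33 and 5.33 CPM in WT (−2.20 ± 0.29).

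Chromatin genes had few calls. Dnmt3l, the cofactor of the de novo DNA methyltransferases, rose the most, to 119 to 196 CPM (median 142) in LSD1 KO libraries, against 11.3, 19.5 and 22.9 CPM in WT 1, 2 and 3 (3.08 ± 0.23, adjusted p = 6.1e-08), and was the only one of 9 DNA methylation and TET genes to do so, joined with the GC correction by Tet3 (1.065). Of 19 Polycomb genes 2 rose and 1 fell, and with the GC correction 1 rose and none fell. Kdm2b, which brings a Polycomb complex to CpG islands, stood at 155 to 213 CPM (median 187) in LSD1 KO, against 92.9, 84.8 and 79.9 CPM in WT (1.12 ± 0.12). Suz12 stood at 614 to 685 CPM (median 639) in LSD1 KO, against 283, 449 and 215 CPM in WT (1.03 ± 0.17), a call lost with the GC correction (0.74) and without WT 1 (0.97) or WT 3 (0.82). Of 29 cell cycle and Myc genes 4 fell and none rose, among them Mycn at 51.6 to 59.6 CPM (median 54.8) in LSD1 KO, against 138, 89.5 and 166 CPM in WT (−1.26 ± 0.14) and the kinase gene Cdk6 (−1.13 ± 0.16), the second not called without WT 2 (−0.83). Among p53 targets 4 of 21 rose and 4 fell (1 lower call with the GC correction), with the BH3-only death gene Pmaip1 (Noxa) at 49.5 to 78.1 CPM (median 59.7) in LSD1 KO, against 9.004, 10.6 and 8.38 CPM in WT (2.75 ± 0.17, adjusted p = 8.21e-09).

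Canonical histone and clustered protocadherin genes lost calls with the GC correction. Histone genes fell in 8 of 15 tested members at a median of −1.002, but none was called with the GC correction, at a median of −0.38. H3c1 stood at 35.1 to 51.5 CPM (median 45.6) in LSD1 KO, against 166, 48.2 and 236 CPM in WT (−1.76 ± 0.30), and WT 2 lay with the LSD1 KO libraries. Protocadherins, adhesion molecules of neurons, fell in 6 of 11 at a median of −1.08, and in 2 with the GC correction at a median of −0.94, so here the median moved little. Pcdhga8 stood at 2.71 to 4.27 CPM (median 3.23) in LSD1 KO, against 10.9, 8.87 and 7.57 CPM in WT (−1.45 ± 0.19), and genes of a protocadherin cluster share their last exons, so the reads of one member cannot be assigned with certainty. None of 13 housekeeping genes was called, at a median of −0.29.

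A group seen only after the values was that of chromosome Y, where 5 of 7 tested genes rose (71.4%) at a median log2 fold change of 2.08. Eif2s3y, a translation initiation factor gene, stood at 34.0 to 42.6 CPM (median 38.3) in LSD1 KO libraries, against 9.20, 9.89 and 7.91 CPM in WT 1, 2 and 3 (2.08 ± 0.12, adjusted p = 7.25e-09). Zfy1, a zinc finger factor gene, stood at 9.39 to 14.01 CPM (median 11.6) in LSD1 KO, against 1.03, 0.957 and 0.448 CPM in WT (3.86 ± 0.26), and the helicase gene Ddx3y at 118 to 130.4 CPM (median 121) in LSD1 KO, against 36.0, 61.6 and 27.9 CPM in WT (1.55 ± 0.18). WT libraries held these genes at lower but clear levels. Zfy2 (4.92 ± 1.11) and Usp9y (3.19 ± 0.88) rose at under 2 CPM, with Zfy2 lost without WT 1 (4.505) or WT 3 (4.30), and Usp9y when most single libraries were left out (2.53 to 3.23) and with the GC correction (2.73). Kdm5d (1.235) and Uty (0.79) were not called. The median of these genes was 2.26 in LSD1 CI minus WT 4 to 11 and 1.61 in the 4 other LSD1 KO libraries, so higher values were not particular to LSD1 KO 1 to 6. In pooled cells, more RNA per LSD1 KO cell and fewer WT cells with a Y chromosome cannot be told apart.

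The same genes were then read in libraries that shared no sample with the first set, 4 other LSD1 KO libraries against WT 4 to 11. Solvent and line history went with genotype there, so their effects cannot be told apart from that of LSD1 loss. Of 16336 genes tested there, 1028 were higher (6.29%) and 246 lower (1.51%). Of the 1449 genes that rose here and were tested there, 702 were called higher there (48.4% of these genes and 69.4% of the 1011 called there) and 1 was called lower. Their sign was positive in 95.6%, against 46.4% of all genes. Of 950 genes that fell here, 159 were called lower there (16.7%, and 65.7% of the 242 called there) and 91.2% were negative, against 53.6% of all genes. The genes that rose had a median of 1.55 there and 2.04 here, and those that fell −0.56 there and −1.34 here.

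Kdm1a was lower there by a like size (−5.04). Psap was called higher (1.43), and Rnf213 was positive but under the threshold (0.89, adjusted p = 7.04e-05). All 14 leading higher genes were called, among them Hand1 (5.91), Rcsd1 (6.72), Dab2 (5.155) and Lama4 (4.68). Of the 12 leading lower genes 11 were called, among them Fgf17 (−4.17) and Nkx1-2 (−5.12), but not Frem2 (−1.445). Over all genes tested there, 6.29% were called higher. Germline genes were called higher in 14 of 30 tested members, Hox genes in 7 of 21, trophoblast genes in 5 of 12 and interferon-stimulated genes in 8 of 26. The 2-cell-like list had 2 of 16 higher, and Dnmt3l was not called (0.61). Integrated stress response genes were negative in 21 of 23 and called lower in 4 of 23, against 53.6% and 1.51% of all genes. Their median was −0.43, and Vldlr (−1.14), Slc7a11 (−2.305) and Stc2 (−1.46) were among the 4.

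The last comparison asked whether cells without LSD1 differed from cells that keep an inactive LSD1. LSD1 CI libraries minus WT 4 to 11 gave 248 higher (1.54%) and 107 lower (0.663%) of 16136 tested genes, fewer than in LSD1 KO minus WT 1 to 3. The numbers of libraries and the fits differ, so these counts do not compare the sizes of the effects. The LSD1 KO effect minus the LSD1 CI effect, a test of the difference itself, was called higher in 552 genes (3.42%) and lower in 619 (3.84%), and lower in 304 (1.89%) with the GC correction. It sets 2 groups of WT libraries of different alignment against each other, and the LSD1 KO and WT 1 to 3 libraries enter it as they enter the main comparison. Kdm1a was not called in LSD1 CI (−0.21).

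Psap (1.03) and Rnf213 (1.33) were both higher in LSD1 KO than in LSD1 CI relative to WT, with 0.33 and −0.155 in LSD1 CI. Among the leading higher genes Hand1, Trim43a (8.39), Lama4 (5.975), Mfsd4b1 (5.95) and Dab2 (5.90) had the largest called differences. In LSD1 CI cells Lama4 had −0.45 and Dab2 −0.30. Others moved in LSD1 CI too and their difference was not called, such as Rcsd1 (5.77 in LSD1 CI, difference 1.34) and Pkhd1 (3.96, difference 1.385). In the germline list Hormad1 (1.79), Stk31 (1.44) and Smc1b (2.19) had positive values in LSD1 CI, and their differences of −0.13, 0.06 and −0.21 were not called. Over the 30 germline genes the difference was called lower in 4, Usp26, Dazl, Sohlh2 and Stag3, and higher in Brdt alone. Integrated stress response genes had a median of 0.07 in LSD1 CI with none called, and their difference had a median of −1.55 with 16 of 23 called lower. Olig2, which fell in LSD1 KO, had −3.71 in LSD1 CI and a called difference of 1.39.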

How the data were processed

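Directional total RNA libraries depleted of ribosomal RNA were sequenced in pairs. Per the study's methods and the submitters' processing notes, the authors trimmed the reads with Trim Galore, aligned them to mm9 with STAR 2.7.9a, removed duplicates with Picard 2.25.5 and counted the reads of each gene by featureCounts on the reverse strand. The deposited files hold raw counts per gene, 1 file per library. Removing duplicates lowers the counts of the most abundant genes. Columns of gene length were used for levels per length only, and none of the 112 count files was left unread.

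Models were fitted to the counts in R 4.3.3 with edgeR 4.0.16 (trimmed-mean normalization, filtering by expression within genotype, robust quasi-likelihood test, LSD1 KO minus WT), with calls at an adjusted p below 0.01 and a fold change above 2. Genes with an exon on an unplaced contig were dropped. Named genes were Kdm1a, Psap, Rnf213, up to 14 called genes per direction with the largest fold change among those with at least 5 CPM in a genotype and no overlap, the members of each of 46 lists with the smallest adjusted p (up to 4), and list members given for their role, and a few of these genes are not reported here. Members and lists were chosen with earlier results of these data known, and chromosome Y genes after their values were seen. On simulated counts for 14994 genes, 95% of 3-fold and 100% of 6-fold changes were recovered, with 2 false calls. The changed genes were drawn from those above 1 CPM and no GC trend was simulated. These figures therefore do not cover genes at lower levels or the GC trend of these libraries. The GC correction subtracted, in each library, a loess curve (span 0.5) of log2 deviation on exonic GC content. Exonic GC content and promoters were read from the NCBIM37 genome and annotation. Alternatives were DESeq2 1.42.0, its size factors, no filter, halved counts, Rn45s or contig genes treated otherwise, a replicate block and leaving out each library.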

Additional observations from a re-analysis of the deposited data

Results flagged for a closer look

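Of 270 named genes, 10 had 1 LSD1 KO library farther from the others than chance gives in 1 of 20 groups. Chance alone would be expected to give at least as many such genes. The library apart was LSD1 KO 1 for Bmp4 (11.4 CPM) and Ccne1 (71.3 CPM), LSD1 KO 3 for Nr0b1 (18.6 CPM) and Smad1 (21.4 CPM), LSD1 KO 4 for Gpc6 (0.252 CPM) and Hoxd8 (2.69 CPM), LSD1 KO 5 for Unc13a (4.79 CPM) and LSD1 KO 6 for Cd68 (4.76 CPM), Dusp6 (8.40 CPM) and Pcdhga1 (2.59 CPM). No single library held most of them.

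The LSD1 KO effect differed from the LSD1 CI effect, by the test of the difference itself in edgeR, in 21 of the 28 example and leading genes, 12 higher and 9 lower. Leading genes were chosen for large changes in libraries that also enter this difference, so the count is partly set by that choice. Over all genes the difference was called higher in 3.42% and lower in 3.84%. It was called higher in 31.0% of the genes that rose and lower in 47.9% of those that fell. The higher differences on the log2 scale were 11.87 for Hand1, 8.39 for Trim43a, 5.975 for Lama4, 5.95 for Mfsd4b1, 5.90 for Dab2, 3.79 for Akr1cl, 3.79 for Brdt, 3.59 for Stxbp5l, 3.51 for Slc38a4, 1.99 for Gm364, 1.33 for Rnf213 and 1.03 for Psap. The value of Hand1, which had no count in WT 1 to 3, depends on the fit and is no bound. The lower differences were −4.72 for Kdm1a, −3.63 for Vldlr, −3.24 for Evc2, −3.22 for Frem2, −2.88 for Calca, −2.52 for Evc, −2.42 for Gpc6, −2.305 for Fgf17 and −1.97 for Wdr86.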

How the results depend on the processing

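The 1497 higher and 951 lower calls stayed within 1.5 times under DESeq2 (1742 and 962), its size factors (1509 and 918), no filter (1577 and 847), halved counts (1555 and 824), Rn45s left out (1494 and 936) and contig genes kept (1499 and 951). The GC correction left 608 lower calls, and 304 lower calls for the LSD1 KO minus LSD1 CI effect. DESeq2 gave 472 lower calls in the other libraries and 918 higher calls for LSD1 KO minus LSD1 CI. Leaving out 1 of the 9 libraries gave 1271 to 1619 higher and 612 to 1441 lower calls, leaving out 1 of the 4 other LSD1 KO libraries 669 to 778 and 116 to 155, and, for LSD1 KO minus LSD1 CI, leaving out 1 LSD1 CI library or 1 of WT 1 to 3 gave 354 to 657 and 366 to 1062. The cause of these shifts was not tested. Same-numbered LSD1 KO and WT libraries deviated together only weakly (correlations of 0.042, 0.083 and 0.099), so the numbers do not pair them. The replicate block on libraries 1 to 3 gave 1163 and 715 calls, and the same 6 libraries without the block 1123 and 657. Over 270 named genes and the alternatives run, 4666 of 4854 values kept direction and call, 139 lost the call, 39 gained it and 10 turned sign, all of uncalled genes. With the GC correction these were Hdac1 (−0.0833), Hdac2 (−0.17), Klf4 (0.0383), Rcor1 (−0.12), Utf1 (0.17) and Zfp42 (−0.0822). With 1 library left out, Hdac1 ran between −0.0828 (without WT 2) and 0.227, Hdac2 between −0.00849 (without WT 1) and 0.270, and Rcor1 between −0.0396 (without WT 3) and 0.139, with −0.00422 without LSD1 KO 2. Depth limited genes under 1 CPM, such as the Zscan4 genes, where few reads decide a fold.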
